A study of Mus musculus with 2 samples.

Results

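Capillary endothelial cells of the mouse aorta are described here from 161 single-cell barcodes, 116 in a wild-type library and 45 in a library labelled Kif13b-/-, out of 28892 barcodes in all (21126 and 7766). A barcode was taken as capillary in 3 steps, all on counts of unique molecular identifiers (UMIs, each standing for 1 captured transcript). It had at least 1000 UMIs with at most 20% from mitochondrial genes. The endothelial genes Cdh5, Pecam1, Egfl7, Tie1 and Cldn5 together gave at least 3 UMIs and at least 1500 per 1000000. The capillary panel Gpihbp1, Cd300lg, Rbp7 and Btnl9 gave at least 2 UMIs and strictly more than the arterial panel (Gja5, Sema3g, Sox17, Bmx and Stmn2) and the venous panel (Selp, Ackr1, Sele and Emcn). The members were thus chosen by the measured levels of these 18 genes, which are given only as a description, with no test. Arterial barcodes (383 wild-type, 110 Kif13b-/-) and venous barcodes (372 and 87) were taken by the same rule with their own panel in the lead and served for comparison.

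The study profiled dissociated aorta by droplet sequencing of transcript 3' ends, with 1 library per genotype. Kif13b encodes a kinesin, a motor protein that moves cargo along microtubules, and the series title places its question in macrophages and atherosclerosis. The title of the second library gives a homozygous loss of Kif13b, whereas its genotype label gives a knock down. The sources used here do not state the strain, age, sex or diet, how many animals were pooled or how the allele was made. Because each genotype had a single library, the genotypes could not be tested against each other: no p-value is given, and every 95% interval covers counting error only and not the differences between animals. "Higher" and "lower" below compare these 2 libraries.

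Capillaries are the thinnest vessels, where endothelium exchanges gases, water and nutrients with tissue. In muscle and fat their cells bind lipoprotein lipase on the luminal face through GPIHBP1, so that triglyceride-rich lipoproteins are hydrolysed there, and take up the released fatty acids through CD36 and the binding proteins FABP4 and FABP5. The transcription factors MEOX2, TCF15 and PPARG are known to drive this programme. The luminal endothelium of the aorta is arterial, and capillaries lie in the small vessels of the outer wall and in the fat around it.

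The 3 genes other than panel genes that stood highest in capillary over both arterial and venous barcodes in the wild-type library were Car4, Slc28a2 and Ccdc85a, and their promoters are shown because the cells are marked by them. Each line gives 250 bases before the RefSeq transcription start on GRCm38.p6, 5' to 3' on the gene's own strand, all outside the annotated gene bodies. Capitals mark matches, on either strand, to 6 motifs. They were CGGAAG, the core bound by ETS factors, and TAATTA, bound by many homeobox factors. The hexamer AGGTCA is bound by nuclear receptors, and TGTTTAC is bound by forkhead factors. SOX factors bind ACAATG, and AGATAAG is a site of GATA factors.
Car4 (chr11:84957504-84957753, plus strand): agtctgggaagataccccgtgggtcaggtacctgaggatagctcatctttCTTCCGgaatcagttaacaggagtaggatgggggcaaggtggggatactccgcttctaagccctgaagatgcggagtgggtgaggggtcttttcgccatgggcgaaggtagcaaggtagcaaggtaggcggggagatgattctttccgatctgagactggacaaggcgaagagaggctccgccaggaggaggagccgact
Slc28a2 (chr2:122426185-122426434, plus strand): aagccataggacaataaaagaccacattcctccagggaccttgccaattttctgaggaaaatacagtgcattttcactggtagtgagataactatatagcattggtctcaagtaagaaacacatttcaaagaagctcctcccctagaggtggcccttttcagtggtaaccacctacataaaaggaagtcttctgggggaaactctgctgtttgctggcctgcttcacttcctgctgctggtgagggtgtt
Ccdc85a (chr11:28584325-28584574, minus strand): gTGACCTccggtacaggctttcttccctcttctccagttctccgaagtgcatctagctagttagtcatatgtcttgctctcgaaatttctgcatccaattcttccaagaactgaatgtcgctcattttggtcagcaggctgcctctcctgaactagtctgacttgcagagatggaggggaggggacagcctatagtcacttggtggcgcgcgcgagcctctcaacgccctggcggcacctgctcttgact
The Car4 promoter held 1 ETS match, the Ccdc85a promoter 1 nuclear receptor match at its far end, and the Slc28a2 promoter none of the 6 motifs. The ETS letters CGGAAG stood in 13.6% of all 32851 promoters of this length, in 24.5% of those of the genes compared and in 12.7% of 245 promoters of genes high in capillary barcodes of both libraries (177 of those 224 genes matched the table). The nuclear receptor letters AGGTCA stood in 14.02%, 10.6% and 10.2%. A match is a run of letters and not a measured binding site. Of 18 promoters looked up, 11 matched.

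The members differed in depth between the libraries. The 116 wild-type members held 609661 UMIs, from 1001 to 24609 per barcode with a median of 3456.5, and the 45 Kif13b-/- members held 536316 UMIs, from 1520 to 88197 with a median of 7583. They had medians of 1820.5 and 2745 genes and of 3.57% and 3.45% mitochondrial UMIs. 52 barcode sequences occurred in both libraries, none of them among the members. Both libraries held Y-linked transcripts and almost no Xist (13 and 7 UMIs).

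A few barcodes stood apart from the rest. 6 wild-type members carried genes of lymphatic endothelium, with 866 Ccl21a, 140 Lyve1, 72 Prox1 and 236 Mmrn1 UMIs between them beside 14 Gpihbp1 and 21 Cd300lg UMIs, and gave 9.38% of the wild-type members' UMIs. A single Kif13b-/- barcode of 88197 UMIs gave 16.4% of the Kif13b-/- members' UMIs. It held 614 Col3a1, 329 Mmp3 and 158 Dcn UMIs, genes of fibroblasts, beside 2349 Fabp4 and 76 Gpihbp1 UMIs, and was among the putative doublets. In all, 36 wild-type members (31.03%) and 4 Kif13b-/- members (8.89%) had at least 5 UMIs, and at least 0.5% of their UMIs, from the marker panel of another cell type. Values without those barcodes, from 80 wild-type and 41 Kif13b-/- members, are given below as values "without mixed barcodes" beside those of all members.

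Over whole marker panels the difference was widest for lymphatic and smooth muscle genes. The 6 lymphatic markers summed to 2391 counts per 1000000 UMIs (CPM) in wild-type members and 72.7 CPM in Kif13b-/- members, with Ccl21a at 0 in the latter. The 5 smooth muscle markers summed to 2457 against 229 CPM. Venous barcodes stood at 361 and 33.2 CPM for the lymphatic panel and at 3090.1 and 1323 CPM for the smooth muscle panel. The 5 pericyte markers gave 900.5 against 694 CPM, the 5 fibroblast markers 863 against 1214 CPM (503 of 651 Kif13b-/- UMIs from 1 barcode, Pdgfra at 0) and the 5 macrophage markers 194 against 44.7 CPM. Adipocyte markers were at 37.7 CPM without any Adipoq UMI and at 98.8 CPM without any Retn UMI. T cell, B cell, glial, red cell, platelet, mesothelial and cardiac muscle panels were each at or under 13.1 CPM in both.

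Capillary barcodes made up a larger share of the endothelial barcodes in the Kif13b-/- library. They were 8.93% (7.43 to 10.61%, Clopper-Pearson) of 1299 wild-type and 14.33% (10.65 to 18.70%) of 314 Kif13b-/- endothelial barcodes. Of all barcodes passing the depth and mitochondrial limits, 16909 and 6868, they were 0.69% and 0.66%. Arterial barcodes were 29.48% against 35.03%, venous barcodes 28.64% against 27.71%, and barcodes led by no panel 32.95% against 22.93%. The rule asks for a fixed number of panel UMIs, and the median depth differed as given above. The part of depth in these shares was not tested beyond thinning. With every barcode thinned to 1000 UMIs before the rule was applied, 48 of 772 wild-type and 17 of 191 Kif13b-/- endothelial barcodes were capillary. These shares were 6.22% and 8.90%, without intervals.

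**Figure D1:**
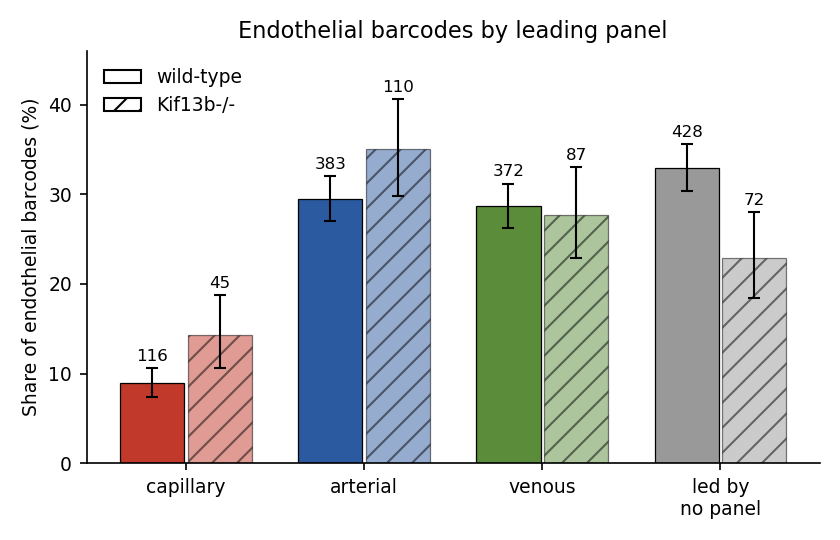
Share of endothelial barcodes (%, y axis) whose leading panel is capillary, arterial, venous or none (x axis), in the wild-type (plain) and Kif13b-/- (hatched) library; bars start at 0, whiskers are 95% Clopper-Pearson intervals of counting error, and numbers are barcodes. The capillary share is 8.93% in the first and 14.33% in the second library, and barcodes led by no panel, 428 and 72 in number, are 32.95% and 22.93%.

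Most members carried several genes of the panel that chose them. 31 wild-type and 20 Kif13b-/- members had UMIs of all 4 panel genes, 39 and 16 of 3, 37 and 8 of 2, and 9 and 1 of a single gene. 43 and 26 members had 10 or more panel UMIs, with 62 and 149 as the highest. At the threshold, 20 and 4 members had exactly 2 panel UMIs, and 20 and 4 led by exactly 1 UMI. Just outside, 14 and 2 endothelial barcodes had 1 capillary UMI in the lead, 7 and 1 tied with another panel, and 47 and 39 had 2 or more capillary UMIs but more of another panel. The separation from other endothelium was incomplete: 77 and 32 members had an arterial panel UMI, 74 and 37 a venous one, and 17 and 3 neither.

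The panel genes themselves, which the rule used, were at these levels. Gpihbp1, the anchor of lipoprotein lipase, stood at 695 CPM (631 to 765) in wild-type and 822 CPM (747 to 903) in Kif13b-/- members, against 6.80 and 16.4 CPM in arterial and 42.1 and 68.6 CPM in venous barcodes. Per barcode it ranged from 0 to 4500.4 CPM with a median of 512 in wild-type members and from 0 to 3339 CPM with a median of 630.1 in Kif13b-/- members, so the 2 libraries overlapped over nearly the whole range. Cd300lg, a mucin-like surface protein of capillary endothelium, was at 554 and 526 CPM, and Rbp7, a retinol-binding protein, at 323 and 358 CPM. Btnl9, a butyrophilin-like membrane protein, was at 451 CPM (399 to 508) and 334 CPM (287 to 386). A Gpihbp1 UMI was seen in 79.3% and 93.3% of members at the median depths above, and in 2.61% of wild-type arterial barcodes at a median of 3040 UMIs.

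Aplnr, the apelin receptor, was named as a marker of these cells but was not in the rule. It was found in 19 of 116 and 13 of 45 members, at 85.3 CPM (63.7 to 112) and 69.0 CPM (48.6 to 95.1). Arterial barcodes held 1.24 and 1.26 CPM. Venous barcodes held less than capillary ones in the wild-type library, at 25.9 CPM (log2 capillary over venous 1.71), and more in the Kif13b-/- library, at 134 CPM (log2 -0.94).

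**Figure D2:**
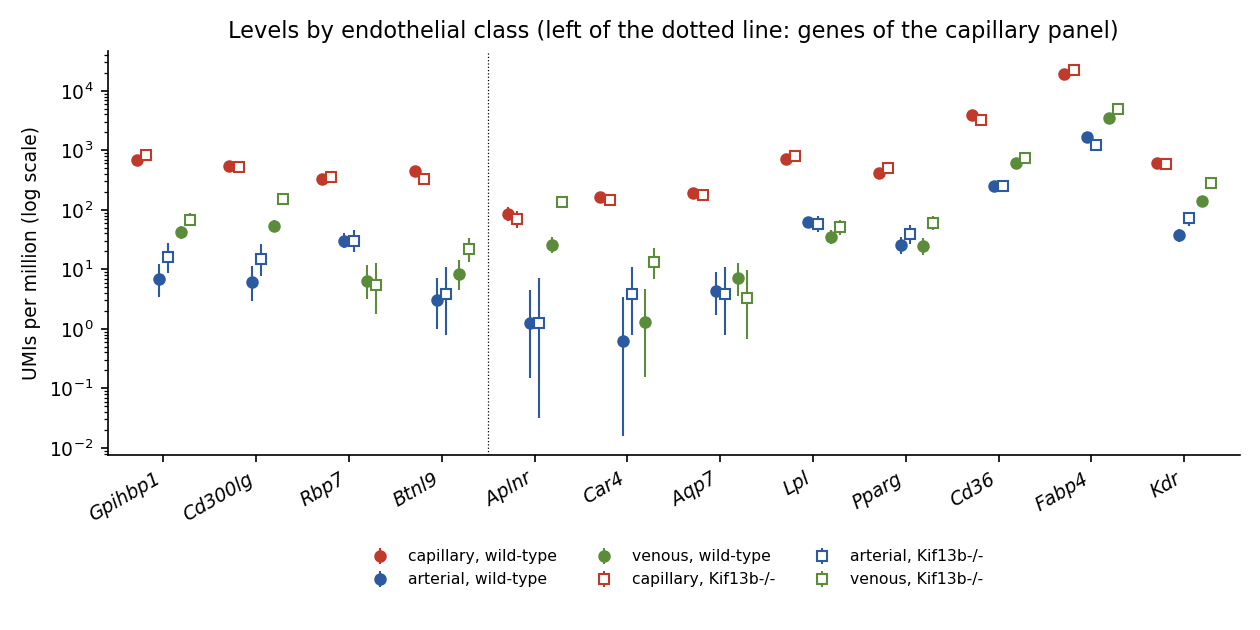
Levels of 12 genes (CPM, log scale, y axis) summed over capillary, arterial and venous barcodes, wild-type as filled circles and Kif13b-/- as open squares; whiskers are exact 95% Poisson intervals of counting error and the 4 genes left of the dotted line chose the capillary members. Fabp4, Cd36, Lpl, Pparg, Aqp7 and Car4 stand above arterial and venous barcodes in both libraries, whereas Aplnr in venous Kif13b-/- barcodes (134 CPM) is above its capillary level.

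The comparison with other endothelium asked which genes outside the panels set capillary barcodes apart. It was read in the wild-type library first, with a gene called where its level was at least 2-fold higher, or lower, than in arterial and also in venous barcodes. The Kif13b-/- library, which had no part in that call, was then read for the same genes. Of 10929 genes with at least 20 UMIs over the 3 groups, 548 (5.01%) were called higher and 768 (7.03%) lower in wild-type capillary barcodes. In the Kif13b-/- library 542 genes (4.96%) and 1127 genes (10.3%) met the same criteria. Of the 548 higher genes, 224 (40.9%) were also at least 2-fold higher in the Kif13b-/- library and 423 lay above both other groups. Of the 768 lower genes, 361 (47.0%) were also at least 2-fold lower and 548 lay below both. Because the panels chose the cells, this is a description of the members and no test. Fibroblast markers summed to 4046 and 3789 CPM in wild-type arterial and venous barcodes, against 863 CPM in members, whereas pericyte and lymphatic markers were higher in members. Leaving out mixed barcodes kept 80 of 116 wild-type members but 503 of 1299 wild-type endothelial barcodes. The part of transcripts from other cell types in these calls was not tested.

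Genes of lipolysis and fatty acid handling were the list with the most members called. 10 of 22 measured genes were higher in wild-type capillary barcodes and none lower, 7 of them in both libraries, against 5.01% of all genes. The list was chosen with earlier results of these data known. Its member Gpihbp1 helped choose the cells and was left out here, so the count is a description only. The list's median log2 ratio was 0.83 over arterial and 1.03 over venous barcodes in the wild-type library and 1.45 and 0.75 in the Kif13b-/- library. Fabp4, a fatty acid-binding protein, was at 19281 and 22725 CPM in members. Arterial barcodes held 1675 and 1236 CPM and venous barcodes 3556 and 4854 CPM, so both capillary values lay above all 4 others. Per barcode it reached from 0 to 58823.5 CPM in wild-type members (median 16749) and from 2281 to 66170.3 CPM in Kif13b-/- members (median 19075). Cd36, the fatty acid translocase, was found in 111 of 116 and 45 of 45 members, at 3851 and 3261 CPM against 252 and 249.8 CPM in arterial and 602 and 735 CPM in venous barcodes. Adipocyte barcodes of the same libraries held 13281 and 16630 CPM of Fabp4 and 771 and 835 CPM of Cd36.

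Lipoprotein lipase itself was among the 12 genes that stood highest. Lpl, the secreted enzyme that GPIHBP1 binds, was at 705 CPM (640.2 to 775) in wild-type and 794 CPM (721 to 873) in Kif13b-/- members, against 62.4 and 58.0 CPM in arterial and 35.005 and 50.9 CPM in venous barcodes. Adipocyte barcodes of the same libraries held 1175 and 1639 CPM of Lpl together with 1151 and 1408 CPM of Adipoq, the adipocyte hormone adiponectin. Members held 0 Adipoq UMIs in the wild-type library, which allows up to 4.92 CPM at a floor of 3 counts over the group, and 4 UMIs in the Kif13b-/- library. Macrophage barcodes held 367 and 449 CPM of Lpl. A Lpl UMI was seen in 67.2% and 84.4% of members, and in 11.2% and 24.5% of arterial barcodes at medians of 3040 and 5348.5 UMIs.

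The enzymes downstream of uptake were high as well. Mgll, monoacylglycerol lipase, was at 671 and 778 CPM in members against 111 and 146 CPM in arterial and 89.5 and 142 CPM in venous barcodes. Plin2, a coat protein of lipid droplets, was at 194 and 254 CPM, and Lipe, hormone-sensitive lipase, at 85.3 and 85.8 CPM with 13.6 and 47.6 CPM in venous barcodes. Scarb1, a receptor for high-density lipoprotein, was at 429.7 and 666 CPM, well above arterial (29.0 and 35.3 CPM) but closer to venous barcodes (169 and 423 CPM). Fabp5, Angptl4, which inhibits lipoprotein lipase, and Lipg, endothelial lipase, made up the rest of the called members, Lipg on only 10 and 8 UMIs.

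Among 23 transcription factors of capillary endothelium, 3 were called higher in the wild-type library, 2 of them in both, and none lower. Over all genes 5.01% were called higher and 7.03% lower in that library. Pparg, a nuclear receptor of fatty acid metabolism, was at 417 CPM (367 to 471) and 513 CPM (454 to 577) against 25.3 and 39.1 CPM in arterial and 24.6 and 60.9 CPM in venous barcodes. Tcf15, a basic helix-loop-helix factor, was at 205 and 196 CPM against 17.9, 18.9, 21.4 and 16.6 CPM in the same order. Ets2 was called in the wild-type library alone, with log2 ratios over venous barcodes of 1.10 and 0.26. Meox2, the homeobox partner of Tcf15, was not called: it was at 148 and 151 CPM, with log2 ratios over venous barcodes of 0.77 and 0.88.

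Transport genes led the ranking of ratios over both groups. 5 of 18 measured genes of solute and water transport were higher in both libraries and 1, Slco2a1, lower in both. In the wild-type library 5.01% of all genes were higher and 7.03% lower. Of the 10929 genes, 224 were higher in both libraries and 361 lower in both. Car4, a carbonic anhydrase held on the cell surface, was at 162 CPM (132 to 198) and 147 CPM (117 to 184), against 0.618 and 3.78 CPM in arterial and 1.30 and 13.3 CPM in venous barcodes. Aqp7, a channel for water and glycerol, was at 189 and 175 CPM with at most 7.13 CPM in arterial and venous barcodes. Slc28a2, a nucleoside transporter, was at 113 and 106 CPM with at most 6.64 CPM in arterial and venous barcodes. Slc1a1, a glutamate transporter, was at 85.3 and 147 CPM against 1.24 and 16.4 CPM in arterial and 7.13 and 0 CPM in venous barcodes. Timp4, a metalloproteinase inhibitor kept in this list, was at 171 and 95.1 CPM. Slco2a1, a prostaglandin transporter, was at 64.0 and 24.2 CPM against 171 and 189 CPM in arterial and 355 and 487 CPM in venous barcodes.

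The remaining genes of the 12 that stood highest were Ccdc85a, Ablim3, Trpm3, Mcf2l, Lnx1 and Lyve1. Ccdc85a was at 441 and 447 CPM in members, with 14.9 CPM in wild-type and 71.9 CPM in Kif13b-/- venous barcodes. Ablim3, an actin-binding protein, was at 325 and 388 CPM with at most 22.2 CPM in arterial and venous barcodes. Trpm3, a cation channel, was at 115 and 147 CPM, and Mcf2l, a guanine nucleotide exchange factor, at 167 and 227 CPM. Lnx1, a ubiquitin ligase, was at 229.6 and 347 CPM with at most 44.3 CPM in arterial and venous barcodes. Lyve1 was high through the lymphatic-rich barcodes, with 142 UMIs in wild-type and 1 in Kif13b-/- members and 4.81 against 2.37 CPM without mixed barcodes.

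Of 14 measured genes of the VEGF and angiopoietin axis, 4 receptors were higher in wild-type capillary barcodes and 4 ligands lower. The shares over all genes were 5.01% and 7.03%. Kdr, the main VEGF receptor of endothelium, was at 620.02 and 591 CPM against 37.1 and 71.9 CPM in arterial and 141 and 279 CPM in venous barcodes. Flt1, a decoy receptor, was at 1671 and 2124 CPM and Nrp1, a coreceptor, at 579 and 571 CPM. Flt4, the receptor of lymphatic growth factors, was higher in the wild-type library alone (65.6 and 26.1 CPM). Its 40 wild-type UMIs lay in 18 members, with at most 7 in any of them. The part of the lymphatic-rich barcodes in the Flt4 call was not tested. Among the ligands, Vegfc was at 8.20 and 9.32 CPM in members, 5 UMIs in each library, against 189 and 90.8 CPM in arterial barcodes. Vegfa was at 36.1 and 31.7 CPM against 119.9 and 97.1 CPM in arterial and 83.0 and 64.2 CPM in venous barcodes. Pgf and Angpt1 were the other ligands, on 4 and 5 wild-type UMIs. Kdr and Nrp1 were called in both libraries, and Vegfc alone among the ligands.

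Basement membrane genes leaned the same way against arterial barcodes. 6 of 18 were called higher in the wild-type library, 2 of them in both, and none lower, against 5.01% and 7.03% of all genes. Col4a1 and Col4a2, the chains of type IV collagen, were at 1449.99 and 851 CPM in wild-type members against 395 and 228 CPM in arterial barcodes. In the Kif13b-/- library Col4a1 was at 1906 CPM in members and 1412 CPM in venous barcodes, a log2 ratio of 0.43. Itga1 and Itga6, integrin subunits that bind collagen and laminin, kept ratios above 2-fold in both libraries, with Itga6 at 510.1 and 604 CPM against 137 and 166 CPM in venous barcodes.

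Vwf, Vcam1, Edn1 and Jag1 were among the genes lower in members, a call that 7.03% of all genes met in the wild-type library. Vwf, von Willebrand factor of clotting, was at 16.4 CPM (7.87 to 30.2) and 9.32 CPM (3.03 to 21.8) against 294 and 399.9 CPM in arterial and 476 and 351 CPM in venous barcodes. Vcam1, an adhesion molecule for leukocytes, was at 100.1 and 129 CPM against 1063 and 1369.9 CPM and 1241 and 771 CPM. Edn1, the vasoconstrictor endothelin, was at 108 and 48.5 CPM against 256 and 189 CPM in arterial and 276 and 158 CPM in venous barcodes, while Ednrb, an endothelin receptor, was at 244 and 309.5 CPM with at most 50.6 CPM in arterial and venous barcodes. Of 15 measured genes of coagulation and fibrinolysis, 3 were lower in both libraries, Vwf and Procr among them, and 1 was higher, Mmrn1, which is a lymphatic marker. Jag1 and Hey2 of the Notch pathway were lower in both, Jag1 at 57.4 and 41.0 CPM against 389 and 286 CPM in arterial barcodes. Of 19 measured genes of leukocyte adhesion and inflammation, 3 were lower, 2 of them in both libraries, and Cxcl12, a chemokine, was higher in both at 992 and 1635 CPM.

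The 12 genes that stood lowest against both groups in the wild-type library held 0 to 16.4 CPM in wild-type members. How far fibroblast or other transcripts in arterial and venous barcodes made these ratios low was not tested. Sfrp1, a WNT antagonist, had 1 UMI in either library, against 173 and 132 CPM in arterial barcodes. Gkn3 and F5, coagulation factor V, had no UMI in either, which allows up to 4.92 and 5.59 CPM at 3 counts. Arterial barcodes held 103 and 163 CPM of Gkn3 and venous barcodes 135 and 118 CPM of F5. Cytl1, a secreted protein at 1638 and 2019 CPM in arterial barcodes, was at 16.4 and 41.0 CPM in members, and chondrocyte barcodes reached 3992 CPM. Enpp6, Myrip, Chil1, Efemp1, Nt5e, Pthlh, Vwf and Col12a1 completed the group. Col12a1, a fibril-associated collagen, was not low in the Kif13b-/- library (39.2 CPM), where 18 of its 21 UMIs came from 1 barcode.

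**Figure D3:**
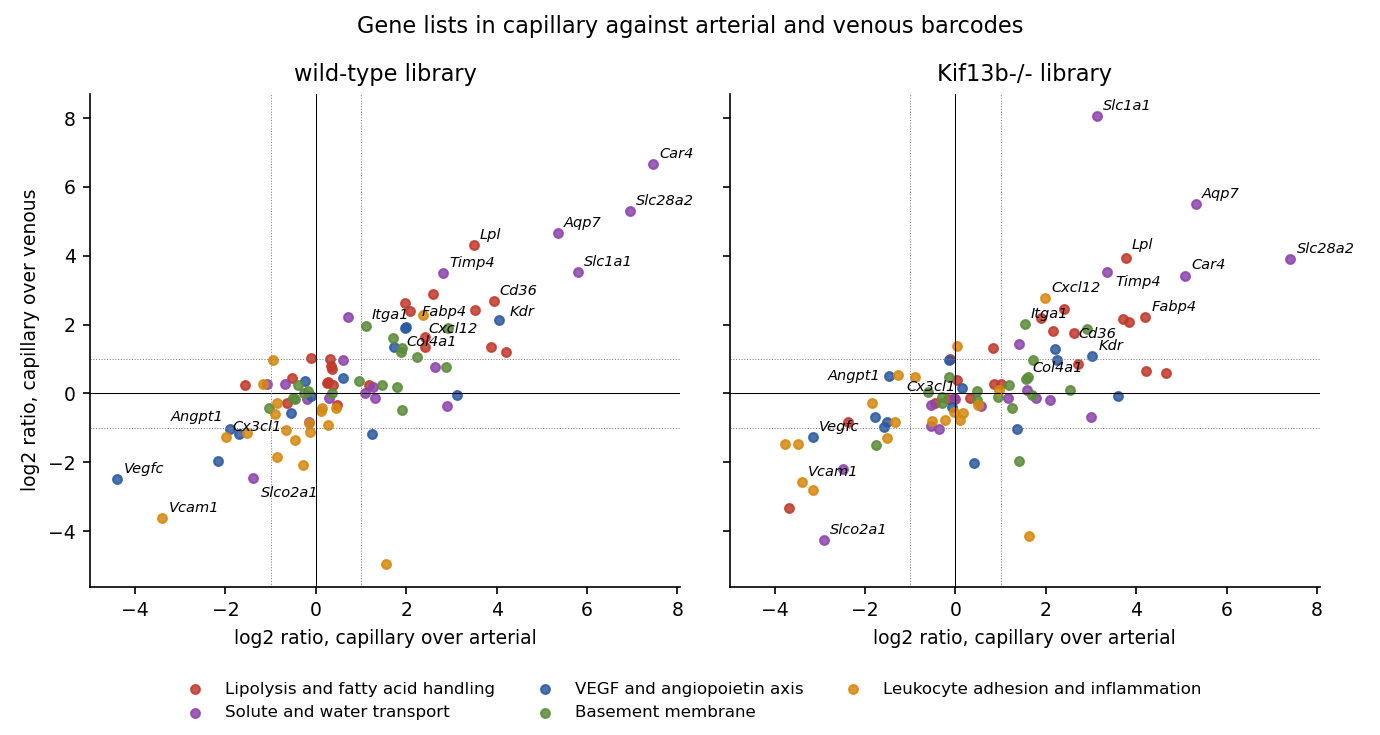
Log2 ratio of levels in capillary over arterial (x axis) and over venous barcodes (y axis) for the genes of 5 lists, left in the wild-type and right in the Kif13b-/- library; each point is a gene, panel genes are left out and dotted lines mark 2-fold. Car4, Slc28a2, Aqp7, Slc1a1, Lpl and Cd36 lie in the upper right of both, Vcam1, Vegfc and Slco2a1 in the lower left of both.

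Of 25 interferon-response genes, 3 were called higher against 5.01% of all genes, Irf7, Rsad2 and Usp18, all 3 in both libraries, and Ifit3 was lower in the wild-type library alone on 2 UMIs. Rsad2, an antiviral enzyme, was at 129.6 and 196 CPM in members against 29.0 and 17.7 CPM in arterial and 15.6 and 16.6 CPM in venous barcodes. Macrophage barcodes reached 259.9 CPM of it. No member of the heat shock list (12 measured), the immediate early list (18), the mitochondrially encoded list (13) or the MHC class I and II list (14) was called in either direction, with list medians from -0.39 to 0.26 in the wild-type library.

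The members also differed among themselves. After each barcode was thinned to 1000 UMIs, the Fano factor (the variance of a gene's UMIs over barcodes divided by their mean) had a median of 1.30 and 1.32 over 390 genes. Fabp4 had the highest Fano factor by the smaller of the values in the 2 libraries, at 12.8 and 10.9. The genes after Fabp4 were mt-Atp6, Malat1, Dcn, Mgp, mt-Co2, mt-Co3, mt-Cytb, Rgs5, mt-Co1, Spp1 and Fth1. Fano factors were not corrected for level, and Fabp4 had 2489 and 1089 thinned UMIs where Dcn had 66 and 25. The ranking therefore does not order genes by variation relative to their level. Dcn (9.76 and 6.51) is a fibroblast marker and Rgs5 (4.56 and 5.71) a pericyte marker. Rgs5 had a UMI in 38 and 13 members and 10 or more UMIs in 15 and 4, up to 9009 CPM in a wild-type member. Pericytes wrap capillaries, and whether such barcodes hold a pericyte with an endothelial cell was not tested.

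Car4 and Aplnr, which mark different capillary states in lung, were each seen in a part of the members, at times together. A Car4 UMI was seen in 36 and 26 members and an Aplnr UMI in 19 and 13, with both in 9 and 10. Thinned to 1000 UMIs, Car4 was seen in 11.2% and 11.1% of members and Aplnr in 6.03% and 6.67%, near the level of a single UMI. Lpl was seen in 35.3% (26.7 to 44.8%) and 51.1% (35.8 to 66.3%) of thinned members and Kdr in 33.6% and 48.9%.

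Kif13b itself comes first among the differences between the libraries. The gene lies on the plus strand of chromosome 14 (64647265 to 64809617, GRCm38). Its level was 102 CPM (78.0 to 130.4) in wild-type members, 62 UMIs in 31 of 116, and 50.3 CPM (33.2 to 73.2) in Kif13b-/- members, 27 UMIs in 16 of 45. The log2 ratio of Kif13b-/- over wild-type was -0.9995 (-1.72 to -0.34), and -1.04 (-1.86 to -0.29) without mixed barcodes. Kif13b was not among the genes called lower in all 6 further settings described below, which leave out or reweight barcodes. Arterial barcodes held 78.5 and 55.5 CPM and venous barcodes 70.0 and 50.9 CPM. Reads of transcript 3' ends can fall outside the altered stretch of the gene, which is not described, and therefore do not test the label. Of 13 measured genes of KIF13B and its known cargo or partners, none was higher and 2 were lower, Kif13b and Dlg1. Among all genes compared 5.62% were higher and 7.67% lower. Kdr, whose protein KIF13B is known to carry to the endothelial surface, was at 620.02 and 591 CPM, a log2 ratio of -0.07 (-0.29 to 0.15). Dlg1, a scaffold protein, was at 192 and 121 CPM, but 32 of its 117 wild-type UMIs came from 1 barcode, and its log2 ratio without mixed barcodes was 0.15.

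A gene was called between the libraries where its levels differed at least 1.5-fold and the exact interval of the ratio excluded equal levels. Of 7122 genes with at least 20 UMIs over both libraries, 400 (5.62%) were called higher and 546 (7.67%) lower in Kif13b-/- members, 13.3% in all, with a median log2 ratio of -0.03. Over the 21 gene lists, 22 list members were higher and 32 lower. Without mixed barcodes 400 (6.73%) of 5940 genes were higher and 299 (5.03%) lower.

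Most of the 10 named genes with the highest ratios came from 1 barcode. Sfrp4, a WNT antagonist, had 65 of its 66 Kif13b-/- UMIs in a single member, Ccl19, a lymphoid chemokine, 51 of 54, Ccn5 42 of 48, Mmp3, stromelysin, 329 of 342, Cfb, complement factor B, 34 of 40, and Col3a1, a fibrillar collagen, 614 of 694. Ccl19-ps2, a copy of Ccl19 whose reads cannot be told apart with certainty, had 52 of 55. Without mixed barcodes the log2 ratio of Mmp3 was -1.88 and that of Col3a1 -0.34, opposite in sign to 2.62 and 1.94 with all members. Kirrel3, Bend7 and Epb41l4a, the other named genes, were spread over 11, 21 and 18 Kif13b-/- members. Bend7 was at 27.9 and 110.01 CPM, and Epb41l4a at 24.6 and 97.0 CPM.

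The 10 named genes with the lowest ratios were in part those of the lymphatic-rich and muscle-containing barcodes. Ccl21a, a lymphatic chemokine, was at 1420.5 CPM in wild-type members, all 866 UMIs in 6 barcodes, and at 0 in Kif13b-/- members, and had 0 UMIs in both libraries without mixed barcodes. Lyve1, Reln and Mmrn1, also expressed in lymphatic endothelium, were found in 6, 8 and 9 wild-type members. Myh11, smooth muscle myosin, was at 459 and 28.0 CPM, and at 77.0 and 11.8 CPM without mixed barcodes. Ctnna3, an alpha catenin, followed at 100.1 and 5.59 CPM, and Maf, a transcription factor, had 229.6 CPM in wild-type and 16.8 CPM in Kif13b-/- members. The part of lymphatic and muscle transcripts in the other differences was not tested beyond leaving those barcodes out.

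Igfbp5, Fxyd6 and Nts were low in the Kif13b-/- members with and without those barcodes. Igfbp5, a binding protein of insulin-like growth factors, was at 976 CPM (899 to 1058) and 33.6 CPM (19.9 to 53.0), with 316 of 595 wild-type UMIs in 1 barcode, and at 902 and 23.7 CPM without mixed barcodes. The barcode with 316 UMIs was not a mixed one, so most of the 375 wild-type UMIs left came from it. Without the top barcode of each library the log2 ratio was -4.08 in place of -4.82. Igfbp5 was seen in 26 of 116 and 9 of 45 members. Nts, the peptide neurotensin, was at 169 and 14.9 CPM, seen in 13 and 4 members, and Fxyd6, a regulator of the sodium pump, at 103 and 3.73 CPM, seen in 13 and 1. Without mixed barcodes, lymphatic and muscle genes were still lower in Kif13b-/- members: Prox1 was at 86.6 and 19.0 CPM, Mmrn1 at 116 and 28.4 CPM and Myh11 at the values above. Their part in the levels of Igfbp5, Fxyd6 and Nts was not tested.

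**Figure D4:**
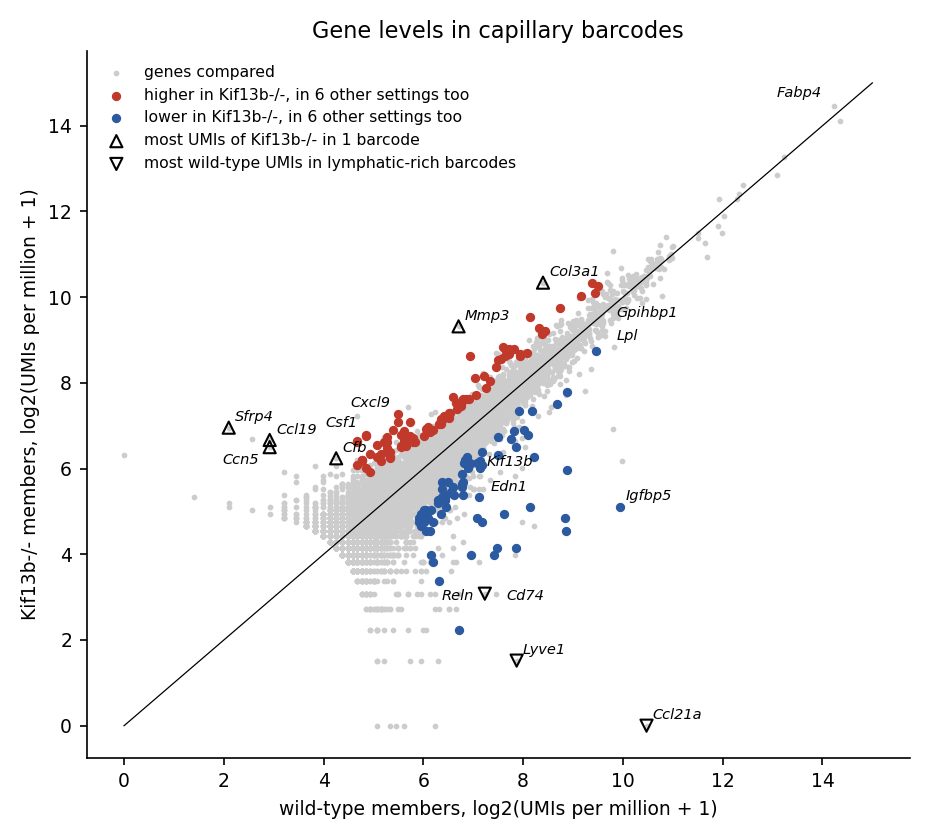
Level of each compared gene in wild-type (x axis) and Kif13b-/- capillary barcodes (y axis), both as log2 of CPM plus 1, with the diagonal as equal levels. Red and blue points are the 98 and 76 genes that were called in the same direction with all members and in 6 other settings and could be named; upright triangles mark genes with most Kif13b-/- UMIs in 1 barcode, inverted ones genes with most wild-type UMIs in lymphatic-rich barcodes.

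Calls that rested less on those barcodes were sought, after the values had been seen, as genes called in the same direction in 6 further settings. These were leaving out mixed barcodes, the top barcode of each gene, the deepest barcode of each library, the lymphatic-rich barcodes with the deepest Kif13b-/- barcode, or putative doublets, and giving every barcode the same weight. 131 genes (1.84% of those compared) were higher and 123 (1.73%) lower throughout, of which 98 and 76 met the conditions for naming. From the lists 6 were higher throughout (Ppard, Piezo1, Dysf, Csf1, Iigp1 and Slc1a1) and 10 lower (Edn1, Mmrn1, Ccl2, Cd74, H2-Aa, H2-Ab1, H2-Eb1, mt-Nd4l, Stmn1 and Tubb5). Each setting was applied alone, so a call in all 6 can still rest on barcodes that only another setting left out. The lymphatic markers Prox1 and Mmrn1 and the smooth muscle marker Myh11 were among the lower genes throughout.

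Csf1, Cxcl9, Nod2 and Piezo1 were among the higher genes. Csf1, the growth factor of macrophages, was at 27.9 CPM (16.2 to 44.6) and 108 CPM (82.1 to 139.8), seen in 13 of 116 and 16 of 45 members, with 21 of 58 Kif13b-/- UMIs in 1 barcode and a log2 ratio of 1.93 (1.16 to 2.83) that was 1.46 without the top barcode of each library. Arterial and venous barcodes did not differ in Csf1 between libraries by as much (51.9 and 55.5, 102 and 102 CPM). Cxcl9, a chemokine induced by interferon gamma, was at 44.3 CPM (29.2 to 64.4) and 155 CPM (123 to 192), with its highest barcode at 5 and 10 UMIs. Other endothelium held less of it in both libraries: arterial barcodes had 0.618 and 2.52 CPM and venous barcodes 10.4 and 19.9 CPM. Nod2, an intracellular sensor of bacterial wall fragments, was at 44.3 and 134 CPM, and Ptpn2, a phosphatase that limits cytokine signals, at 39.4 and 76.4 CPM.

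Piezo1, the mechanically gated channel of endothelium, was at 180.4 CPM (148 to 217) and 369 CPM (319.6 to 424), with a log2 ratio of 1.03 (0.69 to 1.38). Dysf, a membrane repair protein, was at 187 and 379 CPM, and in venous barcodes at 40.8 and 146 CPM. Neat1, a long noncoding RNA retained in the nucleus, was at 282 and 748 CPM, seen in 64 and 38 members. Arterial barcodes held 331 and 365 CPM of Neat1 and venous barcodes 346 and 428 CPM. Fibroblast (306 and 439 CPM) and macrophage barcodes (340 and 492 CPM) were also higher in the Kif13b-/- library, T cell and B cell barcodes lower. Slc1a1, a capillary-high transporter above, was at 85.3 and 147 CPM (log2 0.78 (0.27 to 1.32)). Ppard, a nuclear receptor for fatty acids, was at 37.7 CPM (23.9 to 56.6) and 97.0 CPM (72.4 to 127), and in venous barcodes at 48.0 and 91.8 CPM.

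Among the lower genes were those of antigen presentation by MHC class II. Cd74, the invariant chain, was at 176 CPM (144 to 212) and 7.46 CPM (2.03 to 19.1), in 29 of 116 and 2 of 45 members. The chains H2-Aa, H2-Ab1 and H2-Eb1 had 93.5, 77.1 and 95.1 CPM in wild-type and 11.2, 1.86 and 13.1 CPM in Kif13b-/- members. Summed, the 4 genes gave 441 CPM (390.1 to 497), in 44 of 116 members, against 33.6 CPM (19.9 to 53.0), in 10 of 45. Macrophages and B cells hold far more of them, Cd74 reaching 3729 CPM in B cell barcodes, and macrophage markers were also higher in wild-type members. In the members with no UMI of a macrophage or B cell marker, 80 and 30, the sum was 188 CPM (151 to 233) against 34.1 CPM (15.6 to 64.7). Arterial barcodes held 290.5 and 291 CPM of Cd74 and venous barcodes 331 and 197 CPM. Wild-type smooth muscle and fibroblast barcodes held 189 and 196 CPM of it, above the wild-type members, and 165 and 439 CPM in the Kif13b-/- library. Of 13 measured MHC genes these 4 were lower and Tap2 and Tapbp, which load peptide on class I, higher, with a list median of 0.01. The shares over all genes were 7.67% lower and 5.62% higher. Tap2 and Tapbp were not called without mixed barcodes, while the 4 class II genes were.

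Edn1 was at 108 and 48.5 CPM in members (log2 -1.14 (-1.87 to -0.48)), with 24 of 66 wild-type UMIs in 1 barcode. Ccl2, a monocyte chemokine, was at 119.7 CPM (93.9 to 151) and 41.0 CPM (25.7 to 62.1), whereas in arterial barcodes it was at 100.1 and 570.1 CPM, higher in the Kif13b-/- library. Ccnd1, cyclin D1, was at 139 and 63.4 CPM. Stmn1, a regulator of microtubules, was at 85.3 and 37.3 CPM. Tubb5, a tubulin subunit, had 289 CPM in wild-type and 162 CPM in Kif13b-/- members. In the proliferation list 3 of 5 measured genes were lower, the third being Mcm3 on 17 and 5 UMIs, and none higher. Among all genes 7.67% were lower. The other 10 genes of the list, Mki67 and Top2a among them, had fewer than 20 UMIs.

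Of 18 measured genes of lipolysis and fatty acid handling, 3 were higher (Fabp5, Angptl4 and Scarb1) and 1 lower (Acsl1), against 5.62% and 7.67% of all genes, with a median log2 ratio of 0.19, and none was called without mixed barcodes. Fabp5 had 247 of its 539 Kif13b-/- UMIs in 1 barcode, and its log2 ratio went from 0.85 (0.66 to 1.05) to 0.02 (-0.22 to 0.26). Angptl4 was at 73.8 and 158 CPM, with 28 of 85 UMIs in 1 barcode. Scarb1 was at 429.7 and 666 CPM and went from a log2 ratio of 0.63 (0.40 to 0.87) to 0.42 (0.17 to 0.67), while its venous level was 169 and 423 CPM. Acsl1, an acyl-CoA synthetase, had 30 and 10 UMIs. Lpl, Cd36 and Fabp4 had log2 ratios of 0.17 (-0.03 to 0.37), -0.24 (-0.33 to -0.15) and 0.24 (0.20 to 0.27), all inside 1.5-fold.

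Of 23 capillary transcription factors, Ppard was higher and Meox1 and Nr2f2 were lower, with a median of -0.07. Over all genes 5.62% were higher and 7.67% lower. Meox1, a homeobox factor, was at 73.8 and 31.7 CPM and had a log2 ratio of -1.11 (-2.33 to -0.06) without mixed barcodes. Nr2f2, which specifies veins and lymphatics, had log2 ratios of -0.59 and, without mixed barcodes, 0.12 (-0.42 to 0.66), so the call was lost and the sign turned. Pparg was at 417 and 513 CPM (log2 0.30 (0.05 to 0.55)), and Tcf15 at 205 and 196 CPM.

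Interferon-response genes had the highest median of the lists, 0.36 (0.26 without mixed barcodes), with 5 of 23 higher and none lower. The shares over all genes were 5.62% higher and 7.67% lower. Iigp1, an interferon-induced GTPase, was at 348 CPM (302 to 398) and 591 CPM (528 to 659.9), Bst2, tetherin, at 335 and 518 CPM, and Rsad2 at 129.6 and 196 CPM. Psmb8, a subunit of the immunoproteasome, was at 113 and 172 CPM and Isg15, a ubiquitin-like protein, at 80.4 and 136 CPM. The same 5 genes were called without mixed barcodes, and Iigp1 alone was called in all 6 further settings. Irf9, a transcription factor of the interferon response outside the list, was at 45.9 and 89.5 CPM.

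Of 19 genes of flow sensing and vasodilation, Piezo1 was higher and Edn1 and Calcrl were lower. For this list and the next, the shares over all genes were 5.62% higher and 7.67% lower. Calcrl, the receptor of calcitonin gene-related peptide and adrenomedullin, was at 225 CPM (189 to 266) and 93.2 CPM (69.2 to 123), against 363 and 433 CPM in venous barcodes. Of 18 genes of leukocyte adhesion and inflammation, Icam2, Cxcl12 and Csf1 were higher and Ccl2, Cxcl2, Il6 and Ackr3 lower. Cxcl12 had 272 of 877 Kif13b-/- UMIs in 1 barcode, and its log2 ratio went from 0.72 to 0.27 without mixed barcodes. For Cxcl2, a neutrophil chemokine, the ratio went from -0.91 to 0.11. Icam2, Csf1 and Ccl2 were the genes of the list called without mixed barcodes.

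In the VEGF and angiopoietin axis Angpt2 was higher and Flt4 lower of 11 genes. Beside this list and the following ones, 5.62% of all genes were higher and 7.67% lower. Angpt2, a TIE2 ligand, had 24 of its 35 Kif13b-/- UMIs in 1 barcode, and without the top barcode its log2 ratio was -0.05 in place of 1.29. Flt4 was not called without mixed barcodes, at a log2 ratio of -0.63 in place of -1.30. Of 16 BMP and TGF-beta genes Acvrl1 and Smad7 were higher and Bmpr1a and Id2 lower. Without mixed barcodes none of these 4 was called, and Bmp6 was called higher. Of 15 transport genes Slc1a1 was higher and Timp4 and Slco2a1 lower, Timp4 at 171 and 95.1 CPM. The log2 ratio of Slco2a1 was -1.36, and 0.25 with every barcode given the same weight. Lama4, a laminin chain, was the 1 basement membrane gene called of 18 and was lower, at 249 and 138 CPM. Without mixed barcodes Lama4 was not called, Lama5 was called higher and Col15a1 lower. Dysf was the 1 gene called of 11 in the caveolae list, and was higher, while Mcam, an adhesion molecule, was the 1 called of 11 in the apelin and tip cell list and was lower, at 189 and 110.01 CPM. Both calls held without mixed barcodes, where Cavin3 and Plvap of the caveolae list and Cd34 of the apelin list were also called lower. Of 11 coagulation genes 3 were lower, Procr and Mmrn1 among them, and none higher. Without mixed barcodes Procr was not called, and Plat was called higher.

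No gene was called of 12 in the Notch list or of 14 in the junction list, although Dll1 and Hey1 of the Notch list were called higher without mixed barcodes. Among all genes 5.62% were called higher and 7.67% lower with all members. In the glycolysis list Pfkfb3, a regulator of glycolytic flux, was higher at 100.1 and 192 CPM, and Tpi1 lower. Fos was the 1 immediate early gene called of 17 (lower) and Hspa1b the 1 heat shock gene of 12 (lower). Without mixed barcodes Tpi1 and Fos were not called, and Hspd1 was called lower beside Hspa1b. Of 13 mitochondrially encoded genes mt-Nd3 was higher and mt-Nd4l lower, at 900.5 and 455 CPM. Arterial and venous barcodes differed in mt-Nd4l in the same direction, 1104 and 757 CPM and 1188 and 594 CPM.

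**Figure D5:**
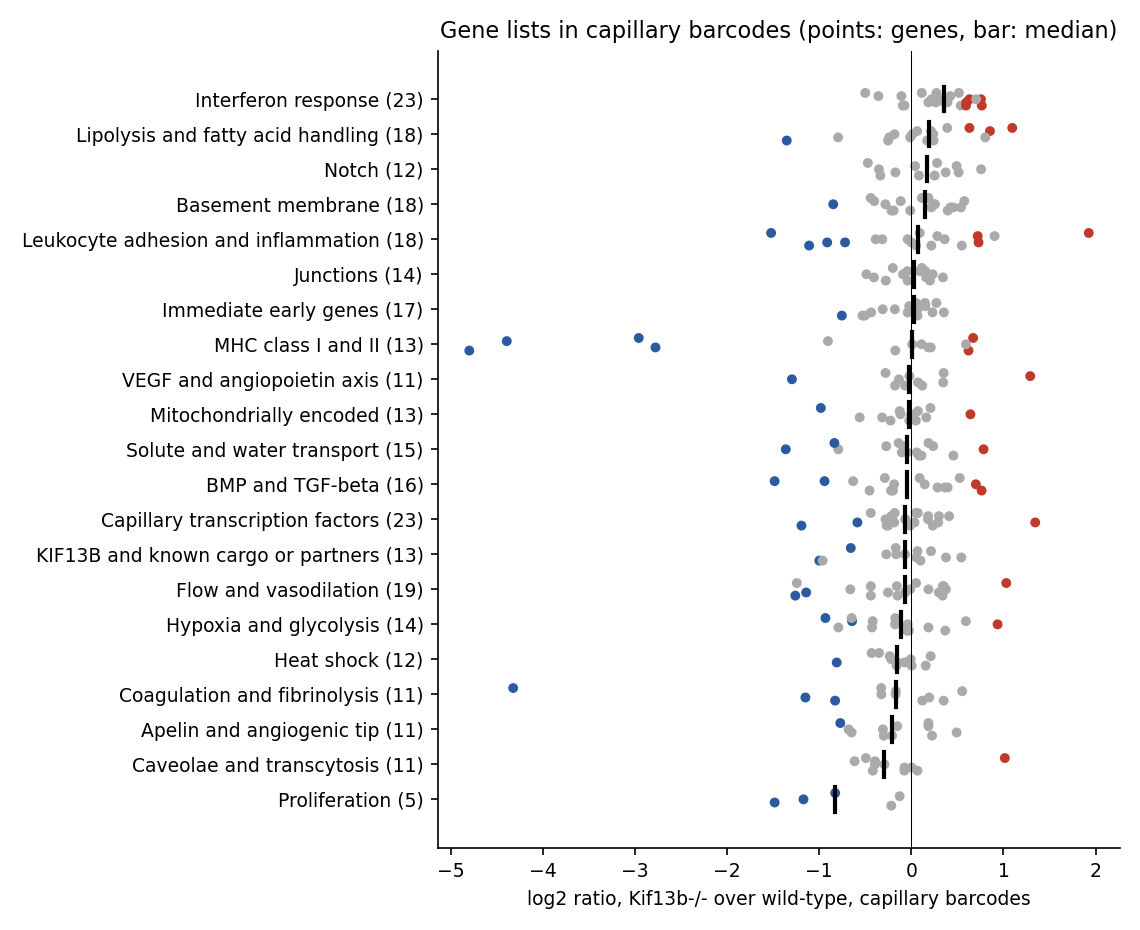
Log2 ratio of Kif13b-/- over wild-type levels in capillary barcodes (x axis) for each measured gene of 21 lists (y axis, number measured in brackets), with black bars at list medians; red and blue points were called higher and lower, grey ones not. List medians run from -0.83 for proliferation to 0.36 for the interferon response, and the 4 MHC class II genes and Mmrn1 lie farthest to the left.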

How the data were processed

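The data were deposited counts: UMIs per gene and barcode from 1 wild-type and 1 Kif13b-/- library of mouse aorta, made by the authors with Cell Ranger 8.0.1, per the file headers, on mm10, per the submitters' processing notes. The annotation release, cell calling settings and later filters are not given in the sources used here. Per the labels' protocols, 6000 cells were loaded for a target of 3000 with a 10x 3' kit. The deposited counts held 21126 wild-type and 7766 Kif13b-/- barcodes, more than the cells loaded. Those passing the depth and mitochondrial limits, 16909 and 6868, were also more. The reason was not tested, and all shares and comparisons use the barcodes as deposited.

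From these counts, UMIs were summed over the barcodes of each class and library and divided by their total to give CPM, with exact Poisson intervals at 95%. Ratios between genotypes carried a prior of 0.5 counts, and their intervals come from the exact comparison of 2 counts. A ratio was called at 1.5-fold between genotypes, where the interval also excluded 1, and at 2-fold between endothelial classes. Genes needed 20 UMIs in all. The floor for a count of 0 was 3 counts over the group. The ratio, interval and call rule were tried on simulated Poisson counts summed over members. That simulation left out the gathering of UMIs in single barcodes, so it cannot show how the calls behave under it.

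Genes were named as panel genes, Aplnr and Kif13b, as the 10 highest and 10 lowest ratios between genotypes, and as the 12 highest and 12 lowest between endothelial classes. At least 50 UMIs and 50 CPM were required, and genes that another cell class held at over 10 times the capillary level were left out. Up to 4 called members of each list, most UMIs first, and the 12 highest Fano factors were also named. Other list members, and genes called in all 6 further settings, were named after their values were seen. The members and all 21 gene lists and 14 marker lists were chosen with earlier results of these data known.

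Doublets were kept in. The automatic threshold of Scrublet (in scanpy 1.11.5) marked 0 and 1 barcodes and had not worked, so as an alternative the highest scores, 2287 barcodes (13.5%) and 377 (5.49%), were removed, among them 5 and 1 members. Promoter sequences were RefSeq's on GRCm38.p6. Of 33696 gene identifiers, 31961 were in GENCODE M21, which gave gene positions. Python 3.11.15 with numpy 2.4.6, scipy 1.17.1 and pandas 2.3.3 was used.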

Additional observations from a re-analysis of the deposited data

Results flagged for a closer look

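Aplnr, the apelin receptor, lay on opposite sides of equal levels in the 2 libraries when capillary were set against venous barcodes. Its log2 ratio of capillary over venous levels was 1.71 in the wild-type library and -0.94 in the Kif13b-/- library. This difference between the libraries was not tested, since there was 1 library per genotype. Capillary barcodes held 52 and 37 Aplnr UMIs, with at most 9 and 10 in 1 barcode, whereas venous barcodes held 40 and 121, with at most 6 and 28 in 1 barcode.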

How the results depend on the processing

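No paired analysis was possible because each genotype had 1 library. The single library per genotype, the number of members and the share of counts in a few barcodes limit the comparison of genotypes.

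The capillary shares, 8.93% and 14.33%, were 7.39% in the wild-type library with at least 3 panel UMIs, 6.005% and 9.87% with a lead of 2 times each other panel plus 1 UMI, 15.9% and 31.5% without mixed barcodes, and 6.22% and 8.90% after thinning. Mixed barcodes were left out of all endothelial barcodes there, which fell from 1299 and 314 to 503 and 130. Members fell from 116 and 45 to 80 and 41. Between genotypes, 18 genes were called higher and 18 lower after thinning, with 2 and 7 list members. 299 were lower without mixed barcodes, 310 were lower with at least 50 UMIs, and 184 were higher, with 11 list members, without the top barcode of each gene. Against other endothelium the counts were 231 higher, 359 lower, 79 higher in both libraries and 117 lower in both after thinning. They were 291, 483 and, in both libraries, 137 higher with at least 50 UMIs, and 2158, 1157 and 504 with at least 1.

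The ratio between genotypes turned for 11 named genes. Without mixed barcodes the log2 ratios were -1.88 for Mmp3, -0.34 for Col3a1, -0.80 for Mgp, 0.12 for Nr2f2, 0.11 for Cxcl2 and 0.15 for Dlg1. Without putative doublets Mmp3 was at -1.76, Col3a1 at -0.58 and Mgp at -0.73. With every barcode given the same weight Mmp3 was at -0.026, Col3a1 at -0.32, Mgp at -0.36, Sema3g at -0.056, Fabp5 at -0.060 and Slco2a1 at 0.25. After thinning Mgp was at -0.25 and Bst2 at -0.022, and with the stricter lead Sema3g was at -0.79. In settings chosen after seeing the data, Mmp3 was at -1.80, Col3a1 at -0.996, Mgp at -1.08 and Angpt2 at -0.046 without the top barcode. Without the deepest barcode of each library Mmp3 was at -1.85, Col3a1 at -0.95 and Mgp at -1.02. Without the lymphatic-rich barcodes and the deepest Kif13b-/- barcode Mmp3 was at -1.89, Col3a1 at -0.999991, Mgp at -1.04 and Dlg1 at 0.025. Beyond these constructions, which remove or reweight barcodes, the cause was not tested. The median log2 ratio of all genes, -0.03, was -0.17 without the top barcode of each gene and lay between -0.08 and 0.04 in the other settings.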
